A study of Mus musculus with 12 samples.

Results

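The 3 wild-type control arrays describe B cells that had been activated without IL-4. They are 3 of the 12 arrays of the study and were chosen by their titles, so no measured value decided the choice. The cells came from spleens of wild-type BALB/c mice, female and 9 weeks old, and had been enriched by negative selection, in which other cell types are labelled and removed. The purified cells were cultured for 4 days with anti-CD40 at 10 µg/ml and bacterial lipopolysaccharide (LPS) at 2 µg/ml, received fresh medium on day 3 and were given no IL-4. Total RNA (integrity numbers 9.6 to 9.9 over the study) was labelled with Cy3 from 100 ng and hybridised to 1-colour Agilent arrays. The labels call the samples triplicates and do not say whether they came from separate animals, so the spread given here may be technical. All 3 arrays lay on 1 slide. No group is compared with another, and the values are a description with no test.

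A mature B cell carries membrane immunoglobulin with the signalling chains CD79A and CD79B, together with surface proteins such as CD20. Ligation of CD40, the receptor through which T cells help B cells, and of Toll-like receptor 4, the receptor for LPS, activates NF-kB, starts cell division and allows the heavy chain constant region to be switched. LPS alone is known to favour switching of mouse B cells to IgG3 and IgG2b and differentiation into antibody-secreting cells.

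The array reads immunoglobulin transcripts through probes of 60 bases. The probes for the constant regions are printed because the class of antibody is read from them, and because a base run that constant regions share limits which transcript a probe can report. They are written 5′ to 3′ in the sense of the transcript, with capitals marking runs of at least 12 bases that also occur in a probe of another constant region. Only the probes for Ighg1 and Ighg3, among the 12 constant region probes compared, contained such a run, of 13 bases. Positions are those of the array files in the mouse build mm9, and the descriptions on the array name the constant region.
Ighm, chr12:114659630-114659689, minus strand: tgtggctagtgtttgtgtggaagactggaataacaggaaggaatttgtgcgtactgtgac
Ighg3, chr12:114597942-114598001, minus strand: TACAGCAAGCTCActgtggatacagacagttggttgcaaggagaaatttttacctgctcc
Ighg1, chr12:114567263-114567322, minus strand: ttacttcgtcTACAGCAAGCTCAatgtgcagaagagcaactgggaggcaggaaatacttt
Ighg2b, chr12:114544738-114544797, minus strand: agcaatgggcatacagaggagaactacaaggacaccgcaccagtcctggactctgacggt
Ighg2c, chr12:114523536-114523595, minus strand: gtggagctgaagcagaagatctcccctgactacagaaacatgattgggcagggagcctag
Ighe, chr12:114509504-114509563, minus strand: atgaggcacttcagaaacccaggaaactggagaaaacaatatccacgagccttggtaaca
Igha, chr12:114496985-114497044, minus strand: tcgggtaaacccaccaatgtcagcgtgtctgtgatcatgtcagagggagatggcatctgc
Igkc, chr6:70676692-70676751, plus strand: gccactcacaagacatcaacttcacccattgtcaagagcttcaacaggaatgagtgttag

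Each array gave processed signals, which are background-subtracted Cy3 intensities, for 59305 spots that are not controls. Between 41.9% and 42.6% of these spots carried the scanner software's flag for a signal well above background, and the saturation flag was set on 0 spots. The 308 negative-control spots had medians of 4.91 to 5.45, the lowest spot well above background read 21.1 to 23.6, and the brightest spot read 349090 to 379714. Signal followed the amount of the spiked control RNA with a slope of 0.993 to 1.00 on the log scale, per the file headers. The brightness of a probe depends on its sequence as well as on the amount of its transcript, so the signals of different genes below are not ranked as abundances. The levels also depended on the background correction, since 127 of 164 lineage genes moved by more than their SD between arrays with another correction (normexp). The median shift over the 164 was 0.16 on the log2 scale. A gene was counted when at least 1 of its probes was well above background on all 3 arrays, and its brightest such probe stands for it.

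Of 34651 gene names on the array, 15872 were well above background on all 3 arrays (45.8%). Among the 20019 genes with a probe for a RefSeq messenger RNA the count was 11177 (55.8%), and this share is the background against which gene lists are read below. The transition was narrow, since 31397 of 55681 probes were well above background on 0 arrays, 21893 on all 3, and only 1514 and 877 on 1 and 2 arrays. Probe classes differed in this share, with 54.9% for RefSeq messenger RNAs, 37.9% for Ensembl transcripts, 25.5% for RefSeq non-coding RNAs and 18.6% for the 16194 probes to intergenic regions with predicted long non-coding RNAs. Counted messenger RNA genes had a median signal of 1225, with 5% below 52.6 and 5% above 22875. The probes of a gene did not always give the same answer, since 2624 of the 6191 counted genes with several probes (42.4%) also had a probe that was not well above background on all 3 arrays. A gene with a single silent probe is therefore described as not well above background, not as unexpressed.

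**Figure D1:**
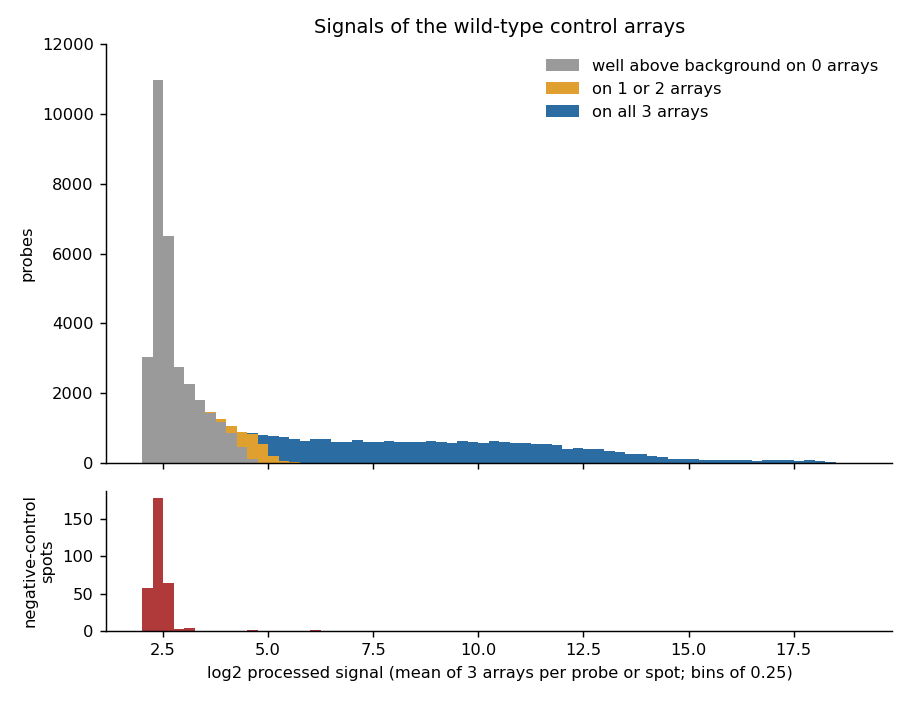
The upper panel counts the 55681 probes by log2 processed signal (mean of the 3 arrays), coloured by the number of arrays on which the probe was well above background, and the lower panel counts the 308 negative-control spots on the same axis. Most probes on 0 arrays lie in the range of the negative controls, and the 21893 probes on all 3 arrays spread over the rest of the axis.

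The 3 arrays gave closely similar values. The correlation between arrays over the 15872 genes was 0.998 to 0.999, although genes of 1 array are not independent of each other. The median SD per gene was 0.07 on the log2 scale after each array had been scaled by its 75th percentile. Single spots of the same probe within an array had a median SD of 0.056 for 225 probes spotted at least 5 times. The same probes had a median SD of 0.060 between arrays. The latter is taken over averages of replicate spots, so these values cannot be compared directly. An SD over 0.5 was found for 64 genes, 45 of which had a signal under 100 and 1 a signal over 1000. The spread thus fell with signal, from a median SD of 0.17 for messenger RNA genes at 30 to 100 to 0.05 at 10000 to 30000.

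All 25 B cell identity genes were well above background on all 3 arrays (100%, against 55.8% of all messenger RNA genes). This list, like the others, was chosen with earlier results of these data known, so its share is no independent result. The chains of the antigen receptor complex were bright, with Cd79a at 36039, 36589 and 38403 on arrays 1, 2 and 3 and Cd79b at 96889, 105444 and 102989. Ms4a1, which encodes CD20, read 120178, 135680.0 and 118937. On each gene the arrays lay close together, with a median SD of 0.05 over the list and a largest SD of 0.12. Fcer2a, the low-affinity IgE receptor CD23, read 24163, 26439 and 26996, and Cr2, the complement receptor CD21, read 8724, 8622 and 7721. The transcription factors of the lineage were also found. Pax5, which holds the B cell fate, read 569.5, 572 and 556, Ebf1 read 4013, 4445 and 4142 and the coactivator Pou2af1 read 56494, 62673 and 56387. The dimmest member was Cd22, an inhibitory receptor of B cells, at 150.4, 150.2 and 134, and its other probe was well above background on 1 array.

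Immunoglobulin transcripts were among the bright probes. The kappa constant region Igkc read 206600.0, 210861 and 212006, the lambda constant region Iglc2 read 124775, 141486 and 125565, and the heavy chain of IgM, Ighm, read 111700.0, 120865 and 119895. Both light chain classes and the unswitched heavy chain were thus at signals over 100000 on every array. Among switched classes, Ighg2b read 28798, 33369 and 31135 and Ighg3 read 11012, 12622 and 12362. The probe for Ighg1 read 3666, 4139 and 4246, and a second Ighg1 probe, at another position of the constant region, read 3605, 4412 and 3853. The second probe held no run of at least 12 bases found in a probe of another class. The full transcripts were not compared, so whether it also reads other classes was not tested. Ighe, the heavy chain of IgE, read 494, 537 and 498. The probe for Ighg2c read 873, 879 and 842, and BALB/c mice are known to carry Ighg2a in its place, so what this probe reads in these cells was not tested. The probes named for these classes were all well above background on every array. Such signals do not separate switched messenger RNA from sterile germline transcripts of the same constant regions.

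Igha, the heavy chain of IgA, had the largest SD between arrays of all counted list members. It read 2334, 4001 and 2184, and its second probe read 878, 1401 and 818, so both probes were higher on array 2 than on arrays 1 and 3. The SD was 0.44 and 0.38 on the log2 scale, against 0.06 for the median member of the immunoglobulin list, and the cause was not tested. Igj, the joining chain of IgM and IgA polymers, read 24473, 27689.8 and 26397. The base excision enzyme Ung, which removes uracil from DNA, read 14538, 16342 and 15127. Mismatch repair (Msh6, Exo1) and end joining (Xrcc5, Xrcc6, Lig4, Trp53bp1) were represented without a gap, so that 20 of 20 members on the array were well above background.

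Variable segments of the immunoglobulin loci were broadly covered. The segments are named by Ensembl transcripts on the array, and 37.9% of all probes to Ensembl transcripts were well above background on all 3 arrays. Of 79 kappa variable segments on the array, 79 were well above background on all 3 arrays, with a median signal of 2861 and a range of 44.1 to 39025. Heavy variable segments reached 72 of 84, with a median of 830.3, and both lambda variable segments were found. T cell receptor segments had 3 of 86, at signals of 33.5 to 124. They were constant region 1 of the beta chain, at 32.4, 35.9 and 32.3, constant region 2 of the beta chain, at 37.1, 43.8 and 43.7, and the alpha variable segment 2. The constant region of the alpha chain read 5.65, 13.4 and 9.17 and was not well above background on any array. Many variable segments have similar sequences, and how far a probe also reads neighbouring segments was not tested.

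Genes of early B cell development divided evenly. Rag1 and Rag2, the recombinase, Dntt, which adds bases at the joins, and Igll1, a surrogate light chain, were not well above background on any array, and neither were Erg and Cd34. Rag1 read 5.33, 5.56 and 4.98, in the range of the negative controls. The other 6 of 12 members were found, some of them dim. The surrogate light chain gene Vpreb1 read 63.1, 57.9 and 61.3 and the IL-7 receptor chain Il7r read 71.8, 78.9 and 59.1, while Cd93 read 6343, 7256 and 7048 and the receptor kinase Flt3 read 7966, 8891 and 8606. The share, 50%, lay near the background of 55.8%.

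The list for antibody-secreting cells reached 17 of 19 (89.5%, against 55.8% of all messenger RNA genes). Whether the cells secreted antibody was not tested. Xbp1, the transcription factor of the secretory programme, read 29411, 33049.5 and 30457, and Irf4, which directs plasma cell formation with it, read 11360.1, 13967 and 13669. Mzb1, a chaperone cofactor for immunoglobulin in the endoplasmic reticulum, read 73676, 80739 and 77554. Prdm1, which encodes Blimp-1 and shuts off the B cell programme, read 1217, 1189.7 and 1247. Sdc1, the plasma cell marker CD138, was dim at 77.3, 75.2 and 77.3. Tnfrsf17, the receptor BCMA of long-lived plasma cells, read 4.7, 4.92 and 11.2 and Fkbp11, a secretory peptidyl-prolyl isomerase, read 17.9, 18.2 and 20.7, and both were not well above background on any array. Pax5 and Bach2, which oppose Prdm1, were found together with it, Bach2 at 1198, 1234 and 1204.

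Germinal centre genes were found for 11 of 14 (78.6%, against 55.8% of all messenger RNA genes). Bcl6, the repressor that defines germinal centre B cells, read 2834, 3141 and 2996, and Fas, a death receptor high on such cells and on activated B cells, read 9633, 10811 and 9893. Gcsam and Nuggc, both characteristic of the germinal centre, were not well above background on any array, and S1pr2, which holds cells in the centre, passed on 2 arrays at 32.5, 29.00 and 34.5. Mybl1 and Rgs13, also linked to germinal centres, passed at low signals, Mybl1 at 35.8, 29.3 and 35.2 and Rgs13 at 51.8, 67.4 and 72.6. The list for B1 and marginal zone B cells had 12 of 12 (100%, against the same 55.8%). Whether cells of these types were present was not tested. Zbtb32 was the brightest of its probes at 11816, 13337 and 12328, Plxnd1 read 11586, 12010.3 and 11294, and Dtx1, a Notch target of marginal zone cells, read 6639.8, 7297 and 7059. Cd5, which marks B1a cells and T cells, read 1194, 1211 and 1118. Bhlhe41, a regulator of B1a cells, was dim and varied, at 53.03, 96.96 and 74.8 (SD 0.38).

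**Figure D2:**
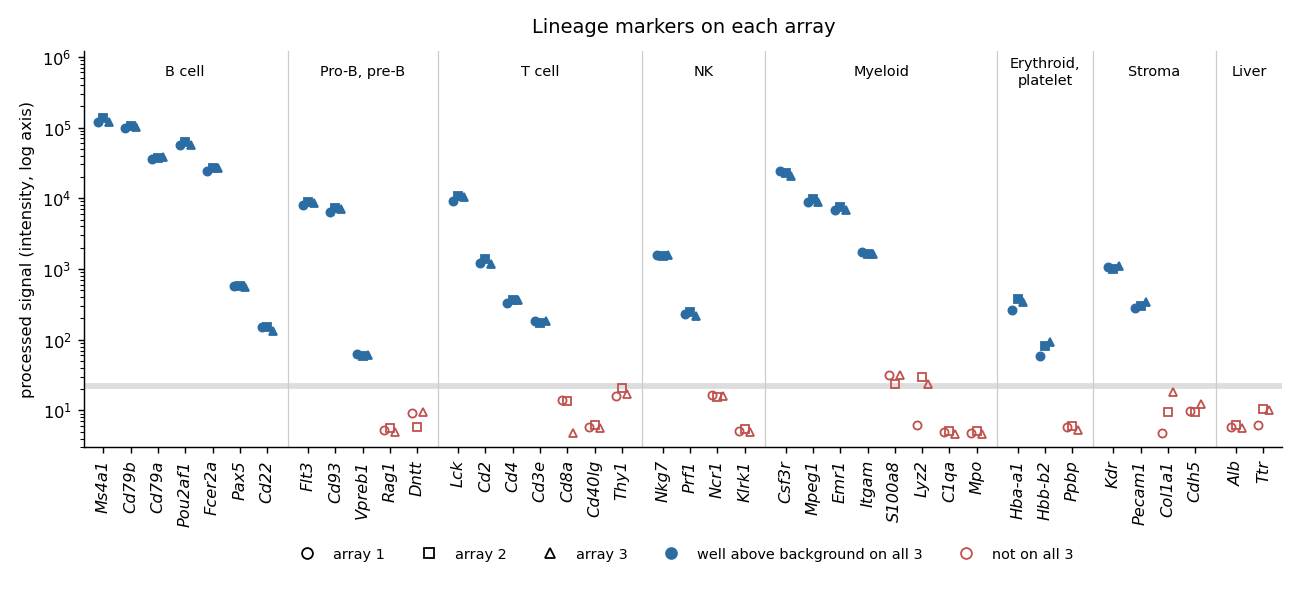
Processed signal on a log axis for 40 lineage genes, with a symbol for each of the 3 arrays. Filled blue symbols mark genes well above background on all 3 arrays and open red symbols the others, and the grey band spans the lowest signal well above background on the arrays (21.1 to 23.6). The B cell genes lie between 134 and 135680, and each other lineage has genes both above and below the band apart from liver, whose genes lie below it.

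Genes of surface proteins that mark activated B cells reached 19 of 20. Cd83, a marker of activated antigen-presenting cells, read 46183, 53923 and 52184. The chemokine receptor Ccr7, which guides cells to the T cell zone, read 54081, 60627 and 55007, Ccr6 read 33863, 35727 and 33760.0, and the follicle receptor Cxcr5 read 12968, 14693 and 14567. Costimulation was represented by Cd80 at 4684, 5009.9 and 4791 and Cd86 at 3334, 3624 and 3533. Cd44, an adhesion receptor that rises on activation, read 7871, 9269.6 and 8683 and Il2ra, the IL-2 receptor alpha chain CD25, read 3744, 4453 and 3959. Tnfrsf8, which encodes CD30, was the exception, at 8.48, 13.96 and 22.8 and well above background on 1 array.

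All 14 genes of class II antigen presentation were well above background. The beta chain gene H2-Eb1 read 233636, 232137 and 224747, H2-Ab1 read 167193, 176974 and 167337, and the invariant chain Cd74, which chaperones class II molecules, read 190689, 201055 and 198358. The genes of the peptide editors were also bright, with H2-DMa at 13279, 15466 and 15377 and H2-Oa at 14961, 16468 and 15905. Ciita, the coactivator on which class II transcription depends, had a dim probe at 33.9, 34.01 and 32.1, and so did the factor Rfx5 at 77.9, 95.7 and 73.3.

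The genes of the receptors through which the cells had been stimulated were well above background. Cd40 read 3584, 3929.5 and 3722. Tlr4, the LPS receptor, read 168, 175 and 174, with a second probe well above background on 0 arrays, and its partner Ly96 (MD-2) read 1823, 2006 and 1935. Cd180 and Ly86 encode a related receptor and its partner, and Cd180 read 98.5, 99.9 and 100.1 while Ly86 read 41764, 44798 and 43616. Tlr1, Tlr2, Tlr6, Tlr7 and Tlr9 were also found, whereas Tlr3, Tlr5 and Tlr8 and the LPS-binding protein gene Lbp were not well above background on any array. The adaptors Myd88, Ticam1, Traf2, Traf3 and Traf6 were all present, and the list reached 20 of 24.

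NF-kB subunits and regulators reached 14 of 15. Nfkb2, whose product is processed in the CD40 pathway, read 24149, 27153 and 26890.5, Relb read 8262, 9249 and 8649 and Rela read 21598, 23906 and 22103. The inhibitors were bright, with Nfkbia at 124957, 136103 and 126525 and Tnfaip3 at 13507, 15584 and 14760.5. Rel, which encodes c-Rel, a subunit well known from B cells, is represented by 1 probe that read 4.63, 5.11 and 4.4, at the level of the negative controls.

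Cytokine genes reached 11 of 25 (44.0%), against the background of 55.8%. Ltb, a membrane-bound lymphotoxin subunit, read 52550.1, 56337 and 54976 and Ebi3, a subunit of IL-27 and IL-35, read 36647, 42847 and 39082. Il6 read 1142, 1382 and 1308, Tnf read 1314, 1602 and 1732 and Il10, an inhibitory cytokine that activated B cells can make, read 260.1, 287 and 268. Csf2, the gene for GM-CSF, read 799, 861 and 823. Not well above background on any array were Il4, Il5, Il13, Il17a, Il21, Ifng, Ifnb1, Il12a, Il12b, Il1a, Il7 and Tnfsf13b, and 6 of these 12 (Il4, Il5, Il13, Il17a, Il21 and Ifng) encode cytokines of helper T cells. Il2 exceeded the background on array 2 only, at 7.49, 47.03 and 4.52 over arrays 1 to 3.

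Chemokine ligands of the list reached 8 of 16 (50%), near the background of 55.8%. Ccl5 read 74096, 79434 and 74979.8, Ccl3 read 1000.5, 1109 and 1036 and Ccl4 read 991, 1089 and 1093. Ccl22, a ligand of CCR4, read 109.6, 115 and 111, while Ccl17, the other ligand of CCR4, read 22.4, 14.6 and 11.2 and was not well above background on any array. The same held for Ccl2, Ccl19, Ccl20, Cxcl2, Cxcl9, Cxcl12 and Cxcl13. Outside the list, and named after its values were seen, the probe for Cxcl11 read 169948, 161584 and 144602, the brightest of all 35 chemokine ligand genes on the array. Its relative Cxcl10, which signals through the same receptor CXCR3, read 137, 181 and 172 on its brighter probe and was not above background on the other.

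Genes of cell division reached 27 of 30. Mki67, present in cycling cells, read 16054, 17353 and 16285, the replicative helicase gene Mcm6 read 49397, 56714 and 53422 and the polymerase clamp Pcna read 16013, 19715 and 16846. The mitotic cyclin Ccnb2 read 10219, 11625 and 10929 and the mitotic kinase Plk1 read 5785, 6744 and 6758. Of the D-type cyclins, Ccnd2 read 9563, 11339.9 and 11496 and Ccnd3 read 6706, 7081 and 6914, and Ccnd1, which lymphocytes are known to lack, read 4.51, 4.76 and 6.04. The remaining exceptions were Aurkb, whose probe read 5.95, 6.22 and 5.49, and Cdk1, which passed on 2 arrays at 23.2, 30.03 and 26.02. The inhibitor gene Cdkn2a, which encodes p16 and p19ARF, read 12738, 12785 and 12927.

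All 24 genes of glycolysis and the hypoxia response were found. Aldoa read 183279, 178881 and 172276 and Ldha, which makes lactate, read 112729, 114672 and 108841. Members known mainly as targets of hypoxia-inducible factors were also present, Bnip3 at 6403, 5902 and 5317, Ankrd37 at 2741, 2289 and 2109 and P4ha1 at 167, 130.2 and 122. These 3 signals were highest on array 1, and P4ha1 also had a probe that was not well above background on all 3 arrays. Other members known as such targets were lowest there, Adm at 1341, 1580.1 and 1465, Car9 at 416, 486 and 471 and Ero1l at 179, 214 and 212. These named members thus did not move together between arrays. Over all 24 genes, the mean deviation from the gene's mean after scaling was 0.063, -0.006 and -0.057 on the log2 scale on arrays 1, 2 and 3.

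Interferon-stimulated genes reached 18 of 20 although Ifnb1 was not well above background. Isg15, a ubiquitin-like modifier, read 19328, 23826 and 22181, Oasl1 read 16359.9, 19176 and 17126 and Irf7, the factor that amplifies the response, read 510.3, 531 and 526. Ifit1 read 715, 824 and 844, while Oasl2 and Rsad2 did not pass on all 3 arrays.

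Most genes of the IL-4 receptor pathway were well above background in these cells, to which no IL-4 had been added. Il2rg, the common gamma chain, read 10698, 12277 and 11833, Jak1 read 11283, 14729 and 13287 and Jak3 read 4542, 4928 and 4853. Stat6, the factor that IL-4 activates, read 2586, 3049 and 2868. Il4ra, the ligand-binding chain, was dim at 46.5, 46.1 and 45.9, and its other probe was well above background on 0 arrays. The alternative chains Il13ra1 and Il13ra2 were not well above background on any array, so the list reached 17 of 19. The feedback inhibitor Cish read 164, 195 and 192, and Socs2 read 145, 176 and 172.

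**Figure D3:**
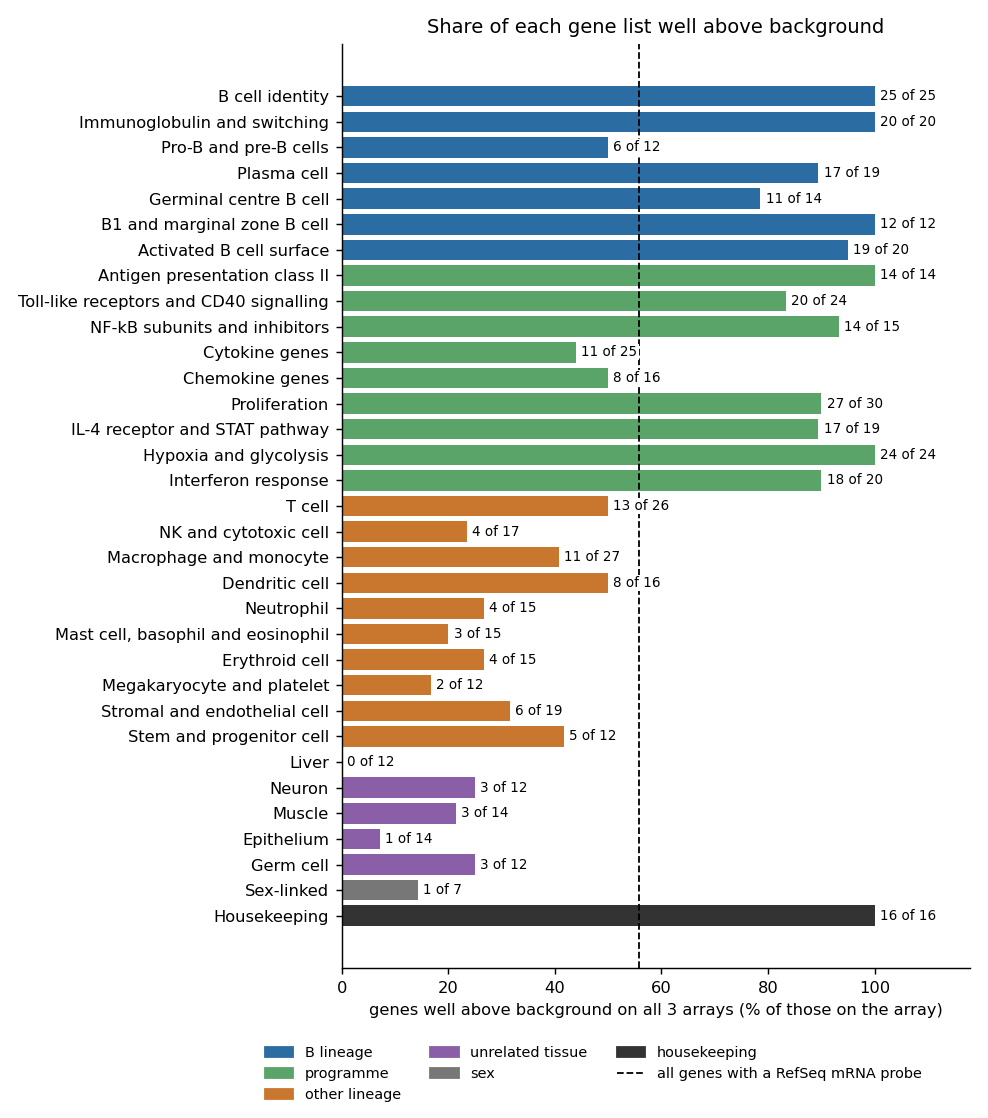
Share of the members of 33 gene lists that were well above background on all 3 arrays, with the counts beside the bars and the background share of 55.8% as a dashed line. Bars are coloured by the kind of list. The B lineage lists apart from early B cell development lie above the line, and all lists of other lineages and unrelated tissues lie below it.

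Over the 7 lists of the B lineage, 108 of 120 genes were well above background (90%). Over the 10 lists of other blood, stromal and progenitor cells the count was 59 of 173 (34.1%), and 10 of 64 for liver, neuron, muscle, epithelium and germ cell (15.6%). The lists share a few genes and were chosen with earlier results of these data known, so the difference between these shares is no independent result. In cell populations fewer cells of a type and less RNA per cell cannot be told apart, and whether a signal came from the B cells or from cells left by the selection was not tested.

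T cell genes passed for 13 of 26 (50%), near the background of 55.8%. Lck, a kinase of the T cell receptor that B cells can also express, was the brightest at 9287, 10612 and 10366. Cd2 read 1215, 1361 and 1191, Cd5 read 1194, 1211 and 1118 and Cd6 read 631, 676 and 562. Cd6 also had a probe that was not well above background on all 3 arrays. Of the chains of the receptor complex, Cd3e read 185, 173 and 183, Cd3g read 60.8, 79.9 and 67.9 and Cd3d read 37.6, 44.9 and 34.3, so all 3 passed at low signals. Cd4 read 327, 364 and 361 on its brighter probe and was not well above background on the other. Cd8a, Cd8b1, Cd247, Thy1, Icos, Foxp3, Bcl11b, Themis, Ubash3a, Cd40lg and Trat1 were not well above background on any array. Bcl11b, the factor that commits T cells, read 5.68, 6.05 and 5.42, and Thy1 read 16.1, 20.7 and 16.9. Gata3 and Ctla4 passed on 1 array each.

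NK and cytotoxic genes reached 4 of 17. Nkg7, a granule protein, read 1578, 1512 and 1598 on its brighter probe and was not well above background on the other, and Prf1, perforin, read 234, 247 and 215. The others found were Cd244 and Il2rb. The receptors Ncr1, Klrb1c, Klrd1, Klrk1, Klra8 and Klre1 and the granzymes Gzma, Gzmb and Gzmk were not well above background on any array, and neither was Tbx21, the gene for T-bet.

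Macrophage and monocyte genes reached 11 of 27. Mpeg1, perforin-2, read 8730.3, 9611 and 8965 and Emr1, the gene for F4/80, read 6809, 7531 and 6834. Itgam, CD11b, read 1759.5, 1637 and 1604 on 1 of its 3 probes and was well above background on no array with the other 2. Csf1r, the receptor for the macrophage growth factor, read 223, 223 and 225, but not all of its probes were well above background on all 3 arrays. The complement genes C1qa and C1qc, the scavenger receptors Cd163, Msr1 and Mrc1, and Mertk, Ccr2, Cx3cr1, Timd4 and Vcam1 were not well above background on any array. Lyz2, the lysozyme of myeloid cells, passed on 2 arrays at 6.27, 29.8 and 23.7. Spic and Cd5l, known from splenic red pulp macrophages, were both found, Spic at 257, 283 and 286 and Cd5l at 495, 567 and 509.

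Dendritic cell genes reached 8 of 16 (50%), near the background of 55.8%. Of these, 3 (Flt3, Bst2 and Tcf4) also stand on other lists here or are known from B cells. Siglech, a marker of plasmacytoid dendritic cells, read 32206, 29867 and 25885 on 1 probe and was well above background on 0 arrays on its other 2 probes. Itgax, Xcr1, Clec9a, Cd209a and Clec10a were not well above background on any array. Among neutrophil genes 4 of 15 passed. Csf3r, the receptor for the granulocyte growth factor, read 24266, 22791 and 20692, whereas Ly6g, S100a9, Mpo, Ngp, Ltf, Cxcr2 and Mmp9 were not well above background on any array and S100a8 passed on 2 arrays at 31.8, 23.9 and 31.7. Lcn2, lipocalin-2, read 435, 572 and 547. Genes of mast cells, basophils and eosinophils reached 3 of 15, with Kit at 98.5, 119 and 115, Hdc at 62.4, 89.02 and 72.5 and Prg2 at 594, 619 and 649, while Fcer1a, Ms4a2, Cpa3, Gata2 and Epx were not well above background on any array.

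Erythroid genes reached 4 of 15, and the 4 had a median SD of 0.24 between arrays, against 0.07 for all counted genes. Hba-a1, alpha globin, read 260.5, 373 and 346 and Hbb-b2, a beta globin, read 58.98, 81.8 and 93.6, both lowest on array 1. The transferrin receptor Tfrc, which dividing cells use, read 1322, 1516 and 1520.2, and Gata1, Klf1, Alas2, Slc4a1 and Ahsp were not well above background on any array. Platelet genes reached 2 of 12, Itgb3 at 2685, 2821 and 2539 and Itga2b at 29.1, 44.02 and 36.7, and Ppbp, Gp1ba, Gp9, Gp6 and Vwf were not. Stromal and endothelial genes reached 6 of 19. Kdr, the VEGF receptor 2, read 1068, 999.3 and 1086 on 1 of its 2 probes and the mucosal addressin Madcam1 read 571, 574 and 552, but Cdh5, Tek, Tie1, Col1a1, Col1a2, Col3a1, Dcn, Lum and Pdgfra were not well above background on any array. Among 12 stem and progenitor genes 5 passed, and Ly6a, the gene for Sca-1 that activated lymphocytes also carry, read 6733, 9044 and 7828.

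Genes of tissues that are no part of the spleen's blood cells were counted in the same way. These lists were chosen with earlier results of these data known, so they are no independent check of the flag. None of 12 liver genes passed, and Alb read 5.91, 6.3 and 5.64. Neuron genes reached 3 of 12, with Snap25 at 1239, 1099.5 and 1183, and muscle genes 3 of 14, with Myh7 at 1882, 2167 and 1862. Epithelial genes reached 1 of 14, Krt14 at 27.8, 24.9 and 21.4, at the limit of the flag. Germ cell genes reached 3 of 12, and Nanog, a factor of pluripotent cells, read 224, 215 and 225 on 1 of its 3 probes, with 0 arrays well above background on the other 2. Xist, transcribed from the inactive X chromosome, read 1386, 1413 and 1411, and the labels give the mice as female. Of 11 Y-linked genes on the array 1 passed, Uba1y at 848, 1026 and 919.9. Its X-linked relative Uba1 is known to be expressed widely, and whether the Uba1y probe also reads Uba1 was not tested. The other 10, among them Ddx3y at 5.28, 5.63 and 5.06, were not well above background on any array.

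All 16 housekeeping genes passed, among them Actb at 271372, 274537 and 270309 and the dimmest, Polr2a, at 391, 384 and 425. Families defined by name were counted in the same way. Olfactory receptors, sensory proteins of the nose, passed for 9 of 1098 genes (0.820%), vomeronasal receptors for 2 of 261 and taste receptors for 1 of 38. The highest olfactory probe read 922, 903 and 915 for Olfr544. Cytosolic ribosomal proteins passed for 81 of 83, and the exceptions were the tissue-restricted relatives Rpl10l and Rpl3l. Mitochondrial ribosomal proteins had 77 of 77, complex I subunits 36 of 36 and proteasome subunits 47 of 49, where Psma8 and Psmb11, the subunits of testis and thymus, were the exceptions. Natural killer receptors of the Klr family had 3 of 32, collagens 4 of 44 and keratins 7 of 52.

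Transcription factor families differed in their counts, where 55.8% of all messenger RNA genes passed. All 9 interferon regulatory factors passed, with Irf8, a factor of B and myeloid cells, at 33558, 36624 and 36082. Pax5 was the only member of 9 Pax genes to pass, and Gata5 the only one of 6 Gata genes, at 98.7, 119.8 and 129. Of 42 genes of the homeobox clusters, Hoxa7 and Hoxb4 passed. Sox genes had 3 of 19 (Sox4, Sox5 and Sox13), where Sox5 passed on 1 of its 3 probes. Fox genes had 13 of 44, among them Foxp1 at 15191, 16243 and 14979.6 and Foxo1 at 4968, 5509 and 5276, both needed for B cell development. Ikzf1, which encodes Ikaros, read 2736, 2949 and 2737, while Ikzf3, which encodes Aiolos, passed on 2 arrays.

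Receptors and ligands were unevenly covered as well. Interleukins had 6 of 32 (18.8%) and their receptors 20 of 40 (50%), where 55.8% of all messenger RNA genes passed. Receptors of the TNF family had 15 of 20, with Tnfrsf13b (TACI) at 53469.8, 55596 and 53112 and Tnfrsf13c (the BAFF receptor) at 16815, 17409 and 16227, and their ligands had 9 of 12. Among chemokine receptors 9 of 18 passed (50%), near the share of all messenger RNA genes. Genes named as CD antigens passed for 56 of 83 (67.5%), at a median signal of 2203, and Cd52, a small glycoprotein of lymphocytes, read 178014, 184441 and 173954.

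**Figure D4:**
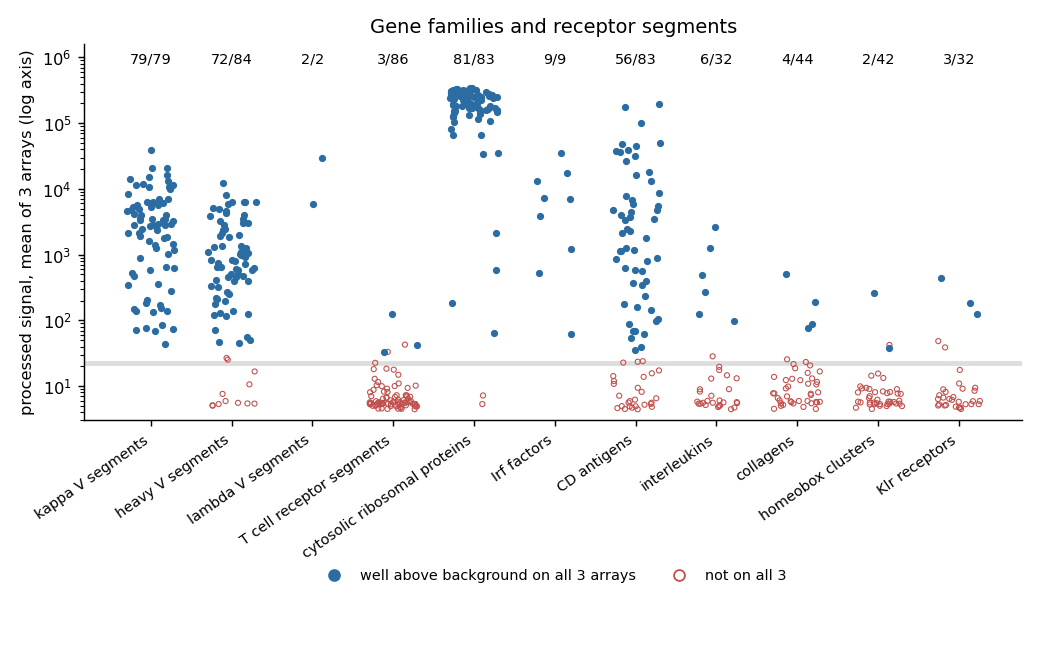
Processed signal (mean of the 3 arrays, log axis) of every member of 11 families, with filled blue points for members well above background on all 3 arrays, open red points for the others, counts at the top and a grey band at the lowest signals well above background (21.1 to 23.6). Kappa variable segments lie wholly above the band, and 83 of 86 T cell receptor segments were not well above background on all 3 arrays.

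The sequence before the gene start went with the flag. Many promoters of widely expressed genes hold CpG islands, stretches rich in the dinucleotide CpG, whereas promoters of tissue-restricted genes often do not. RefSeq promoters (build GRCm38.p6) were matched to 15893 of the 20019 messenger RNA genes, and CpG was counted in the 250 bases before the start. Genes with 0 CpG were well above background in 10.0% of cases (104 of 1041) and those with 1 to 2 in 18.3%. The share was 35.5% for 3 to 5, 59.1% for 6 to 10, 77.7% for 11 to 20 and 78.9% for 21 or more. Upstream sequences of 3 genes from different classes are shown for illustration, chosen after the values had been seen, with CpG in capitals. Polr2a, the large subunit of RNA polymerase II, has 23 CpG. Cd3e has 7, and Alb, not well above background, has 2.
Polr2a, chr11:69758634-69758883, minus strand: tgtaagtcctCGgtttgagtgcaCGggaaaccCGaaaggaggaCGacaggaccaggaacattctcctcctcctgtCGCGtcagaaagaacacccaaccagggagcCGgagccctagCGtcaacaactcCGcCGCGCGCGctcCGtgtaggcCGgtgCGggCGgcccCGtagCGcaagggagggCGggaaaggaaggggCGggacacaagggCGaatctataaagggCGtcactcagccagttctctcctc
Cd3e, chr9:45009612-45009861, minus strand: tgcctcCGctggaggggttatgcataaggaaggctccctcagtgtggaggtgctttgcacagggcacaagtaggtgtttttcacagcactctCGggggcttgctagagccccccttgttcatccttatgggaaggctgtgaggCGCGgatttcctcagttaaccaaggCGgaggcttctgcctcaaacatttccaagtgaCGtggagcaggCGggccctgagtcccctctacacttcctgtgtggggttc
Alb, chr5:90460620-90460869, plus strand: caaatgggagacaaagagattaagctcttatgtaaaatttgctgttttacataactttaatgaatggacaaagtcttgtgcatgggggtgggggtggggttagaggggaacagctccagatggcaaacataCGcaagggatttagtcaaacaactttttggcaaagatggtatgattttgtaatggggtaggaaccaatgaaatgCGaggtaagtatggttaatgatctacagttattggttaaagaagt

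**Figure D5:**
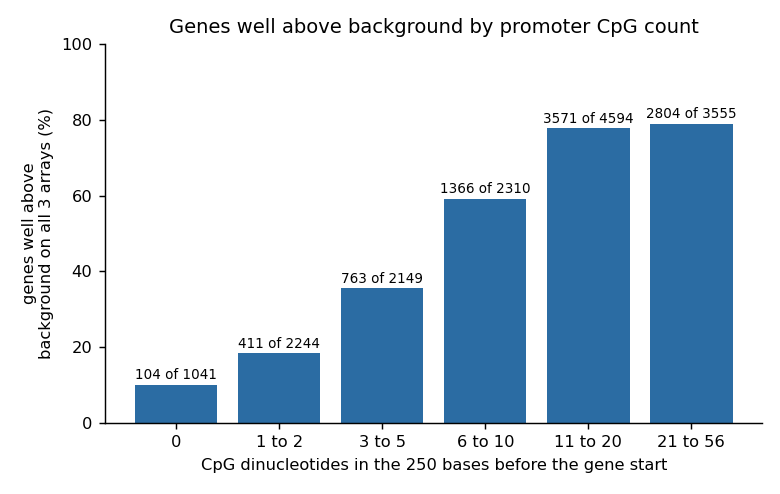
Share of messenger RNA genes well above background on all 3 arrays (vertical axis, %) in 6 classes of promoter CpG count (horizontal axis), with the counts above the bars. The share lies at 10.0% for 0 CpG and at 78.9% for 21 to 56.

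The lists followed this property in part. Median CpG counts were 20 for the proliferation genes, 3 for the cytokine genes and 2 for the macrophage genes. The 19 B cell identity genes with a promoter had a median of 5 although all 25 genes of the list passed, and the T cell genes had a median of 4.5. The octamer ATTTGCAT, a site for Oct factors known from immunoglobulin promoters, was searched on both strands of the same 250 bases. It occurred in 1.61% of all 27025 promoters, in 1.24% of the 9019 whose genes passed, in 2.11% of the 6874 whose genes did not, and in 2 of the 19 B cell identity promoters, those of Blnk and Vpreb3.

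Among genes with symbols the 10 brightest probes were those of Fau, Rpsa, Rpl29, Rpl35, Rps27a, Rpl11, Rps29, Glrx2, Rps16 and Rps10. All but Glrx2, a mitochondrial glutaredoxin, encode ribosomal proteins or, in Fau and Rps27a, fusions that include one. Of the 3 probes of Glrx2, only 2 were well above background on all 3 arrays. Fau read 379714, 370304 and 347124. The 10 genes with the largest SD between arrays were Egr3, Adh5, Cxcr3, Prrg1, Folr4, Mesdc1, Bgn, Zbtb34, Cdyl2 and Anp32a, and all but Anp32a had signals of at most 172 on every array. Egr3, an early response factor, read 100.3, 34.6 and 28.2 and Cxcr3, a chemokine receptor, read 53.5, 139.7 and 62.9. Anp32a, a nuclear phosphoprotein, read 1561, 1607 and 2966, high on array 3.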

How the data were processed

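Scanner files of the 3 wild-type control arrays were used. Per the file headers, the authors' images were read with Agilent Feature Extraction 10.7.3.1. The deposited processed signal is an intensity after subtraction of background and spatial detrending on each array, and spots at background level hold a small substitute value (34.5% to 37.1% of the spots). The authors also deposited gene-level values on the log2 scale, background subtracted and quantile normalised per the file headers, which were used as an alternative. The 9 columns of other samples in that file were not used.

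Spots with outlier flags (123 to 159 per array) were left out, and replicate spots of a probe were averaged. A probe was called on an array when at least 50% of its spots were flagged well above background. A gene was called when at least 1 probe was called on all 3 arrays, and its brightest called probe (otherwise its brightest probe) stood for it. Signals are given per array as processed intensities. For the SD, log2 signals were scaled by the 75th percentile of each array (300.1 to 324 in intensity). With 3 arrays the precision of an SD is low. The scripts were tested on simulated data.

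RefSeq accessions matched for 28026 of 29796 probes that carry one, and 1651 of these have another symbol today, while the array's names are used here. The analysis used Python 3.11.15 with pandas 2.3.3 and numpy 2.4.6, matplotlib 3.10.9, and R 4.3.3 with limma 3.58.1 for the normexp alternative.

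The members and lists were chosen with earlier results of these data known, and the families by name were written after the files had been seen. Genes named are the members of the lists, the 10 brightest and the 10 with the largest SD, and members of families picked after their values were seen. Of the listed genes, 4 have no probe under their name (Ighd, Iglc1, Tnfsf13 and Ccl21a). Where RefSeq lists several promoters for a symbol, the first was taken. Some members of the lists are counted but not reported here by name.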

Additional observations from a re-analysis of the deposited data

Results flagged for a closer look

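The array carries 96 probes for external control RNAs of the ERCC set, spotted 2772 times per array, which enter no count above. Only 37 to 53 of these spots per array were well above background. The median signal of 2 of the 96 probes exceeded the 99th percentile of the negative-control spots (9.10, 7.51 and 6.67 on arrays 1, 2 and 3) on every array. ERCC-00148_99 had medians of 47.1, 43.9 and 33.4 (mean 41.5), with 28, 21 and 20 of its 28 spots well above background. ERCC-00113_271 had medians of 24.4, 16.6 and 17.1 (mean 19.4), with 13, 3 and 3 of its 28 spots well above background. Whether such RNAs had been added was not stated in the sources used here, and the cause was not tested.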

How the results depend on the processing

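The counts of genes depended mainly on the flag. With the scanner's flag for a positive and significant signal, 94 genes of other lineages were counted in place of 59, whereas the B lineage count was 112 in place of 108 and the count over all gene names 21150 in place of 15872. With the 99th percentile of the negative controls as the limit the counts were 84, 110 and 19465. The olfactory receptors counted rose from 9 of 1098 to 170 and 79 under these choices. Calling a gene only when all its probes passed gave 48 genes of other lineages, 102 of the B lineage and 13248 over all gene names. Leaving out each array in turn gave 15996 to 16089 genes in all, 108 to 109 of the B lineage, 59 to 60 of other lineages and a median SD of 0.049 to 0.064. The median SD was 0.058 to 0.089 under other scalings, background corrections, filters and the authors' values, which carry no flags and so gave no counts. The signal levels depended on the background correction. Among 164 counted genes of the B and other lineage lists, the level moved by more than the SD between arrays for 127 with normexp. Over all 164 the median shift was 0.16 and the largest 1.68 on the log2 scale. With the authors' values shifted to the same median, 139 moved that far (0.23 and 2.99), and 0 with quantile scaling. Leaving out 1 of 3 arrays cannot move a mean by more than that SD, so no count is given there. The largest shifts without arrays 1, 2 and 3 were 0.20, 0.25 and 0.16. No paired analysis was possible because 1 group was described and no groups were compared. Signals under about 100 have the largest spread, and 3 arrays on 1 slide limit the precision of every value.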
